A study of Mus musculus with 2 samples.

Results

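The 6 genes described here are Etv4, Etv5, Spry1, Spry2, Spry4 and Dusp6, all widely used as readouts of fibroblast growth factor (FGF) signalling. They were chosen by symbol from the 32286 features of each count matrix. Their transcripts were counted as UMIs (unique molecular identifiers, 1 per captured mRNA molecule) in single cells of dorsolateral flank skin from mouse embryos at E13.5. The 2 libraries, 1 per group, came from littermates dissociated in parallel, with 2 to 3 embryos pooled in each. The mutant library is titled as dermal SmoM2YFP mutant, from a cross of Axin2CreER mice with Rosa-lox-STOP-lox-SmoM2YFP mice. SmoM2 is a constantly active form of the Hedgehog transducer Smoothened, here fused to YFP and expressed only after Cre has removed a stop cassette. Axin2CreER drives Cre in cells that respond to Wnt signalling, a population that is not dermal alone. The control library is titled as SmoM2YFP control. Which alleles the control embryos carried, and when Cre was induced, are not given in the sources used here.

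FGFs bind receptor tyrosine kinases and act largely through RAS and the kinase ERK. ERK signalling induces the ETS family transcription factors Etv4 and Etv5, and it also induces its own brakes: the Sprouty proteins Spry1, Spry2 and Spry4, which restrain the route from receptor to RAS, and Dusp6, a phosphatase that removes phosphate from ERK. The repressor Capicua (CIC), which ERK inactivates, is known to hold down Etv and Spry genes and Dusp6. In embryonic skin, Fgf20 from the hair placode, the epidermal thickening that starts a follicle, signals to the dermis beneath it, where the dermal condensate forms. Transcript levels of the 6 genes are an indirect readout, since other receptor tyrosine kinases use the same route.

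The libraries held 109629368 UMIs in 13566 barcodes (control) and 73809828 UMIs in 11909 barcodes (mutant). Filtering left 11553 cells in the control and 8521 in the mutant library, with medians of 7444 and 6663 UMIs per cell. Barcode sequences listed in both libraries numbered 48, of which 37 were among the cells kept. The genotype entry of each library contradicts its title. Groups follow the titles, and the dermal level of Ptch1, a direct Hedgehog target, was 245.6 CPM (counts per 1000000 UMIs of the class) in the library titled mutant and 5.57 CPM in the library titled control. At least 1 UMI of the eYFP tag was found in 15.9% of dermal cells of the mutant library and in 0.296% of those of the control library. Cells fell into 10 classes named from marker genes: dermal-like mesenchymal cells (8774 control and 5158 mutant), epidermal-like cells (552 and 1390), muscle-like, macrophage-like, mast and other blood-like, endothelial-like, mural-like (cells around vessels), Schwann and glia-like, melanoblast-like and erythroid-like cells. The suffix is left out below. All 10 dermal and all 9 epidermal markers were above 10 CPM in their own class. Barcodes of the erythroid class carried Col1a1, a fibroblast collagen, at 35.6% (control) and 45.3% (mutant) of its dermal level, so values in that class include RNA of dermal origin. They also carried markers of other classes, in amounts that differed between the libraries. Summed macrophage markers stood at 1056 CPM in the control and 201 CPM in the mutant, melanoblast markers at 758 and 107 CPM. Epidermal markers stood at 207 and 511 CPM in the erythroid class. Mural cells carried Col1a1 at 43.9% and 47.8% of its dermal level, and how far their values include dermal RNA was not tested.

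With 1 library per group there was no replicate, and no test was made between the groups. Each level is the sum of a gene's UMIs over all cells of a class in a library, in CPM of that sum's total. Intervals are 95% intervals for counting error alone. A gene was counted as higher or lower where it reached 10 CPM in either library and differed at least 1.5-fold. In sums of this kind, fewer expressing cells and less RNA per cell cannot be told apart.

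Of the 6 genes, 4 had a promoter entry in the RefSeq table (Dusp6, Etv5, Spry1 and Spry2; build GRCm38.p6), spanning 250 bases before to 50 after the transcription start. Each window was searched on both strands for an ETS motif, CCGGAA, and for 4 forms of the CIC octamer, TGAATGAA, TGAATGGA, TCAATGAA and TCAATGGA. The shorter ETS core, GGAA, also occurs in the sequences below and was not counted. The sequences given are those of Dusp6, Spry2 and Spry1, the genes whose dermal levels differed most between the libraries, from 250 bases before the start to 30 bases after it, 5′ to 3′ on the strand of the gene. Capitals mark CIC octamers, which in these promoters lie on the opposite strand.
Dusp6 promoter, chr10:99262981-99263260, plus strand: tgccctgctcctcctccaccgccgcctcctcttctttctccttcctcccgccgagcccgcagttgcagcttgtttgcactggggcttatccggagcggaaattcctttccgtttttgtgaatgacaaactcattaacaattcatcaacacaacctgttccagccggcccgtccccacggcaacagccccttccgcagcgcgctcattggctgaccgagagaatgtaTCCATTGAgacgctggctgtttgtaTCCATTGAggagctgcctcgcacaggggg
Spry2 promoter, chr14:105896790-105897069, minus strand: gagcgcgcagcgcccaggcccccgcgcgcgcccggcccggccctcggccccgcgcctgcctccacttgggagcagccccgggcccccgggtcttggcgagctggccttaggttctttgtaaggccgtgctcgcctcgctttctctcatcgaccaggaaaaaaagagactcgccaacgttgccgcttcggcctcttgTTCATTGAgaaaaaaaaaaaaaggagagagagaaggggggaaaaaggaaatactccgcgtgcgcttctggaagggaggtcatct
Spry1 promoter, chr3:37639697-37639976, plus strand: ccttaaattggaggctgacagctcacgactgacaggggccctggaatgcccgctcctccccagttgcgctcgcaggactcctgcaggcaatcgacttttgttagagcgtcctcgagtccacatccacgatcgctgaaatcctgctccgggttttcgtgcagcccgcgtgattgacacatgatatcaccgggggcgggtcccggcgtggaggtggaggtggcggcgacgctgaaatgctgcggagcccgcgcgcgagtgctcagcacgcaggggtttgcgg
The Dusp6 window holds the octamer TCAATGGA at 2 places, from 24 to 17 bases before the start and from base 2 to base 9 after it. Spry2 has TCAATGAA from 54 to 47 bases before the start, and the ETS motif from base 34 to base 39 after it, beyond the stretch shown. No match was found in the Spry1 window or in the 2 windows listed for Etv5, and no matches of the 2 motifs overlapped. Among 32851 promoter windows of the same length, 3.84% held a CIC octamer, 0.183% held 2 or more, and 14.9% held the ETS motif. A match describes letters and not a bound site, and the data hold no measure of binding.

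The genes lie on different chromosomes in GRCm38. Dusp6 (ENSMUSG00000019960) spans bases 99263231 to 99267489 of chromosome 10, Spry1 (ENSMUSG00000037211) bases 37639947 to 37644598 of chromosome 3 and Spry2 (ENSMUSG00000022114) bases 105891947 to 105896819 of chromosome 14. Etv4 (ENSMUSG00000017724) spans bases 101769742 to 101785371 of chromosome 11, Etv5 (ENSMUSG00000013089) bases 22381309 to 22439719 of chromosome 16 and Spry4 (ENSMUSG00000024427) bases 38586247 to 38601415 of chromosome 18. All 6 are protein-coding genes in GENCODE M21.

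Each gene had its own distribution over the cell classes of E13.5 skin. Dusp6, the ERK phosphatase, was highest in macrophages, at 86.4 CPM in the control and 130.4 CPM in the mutant library. Endothelial cells followed at 71.4 and 85.2 CPM, and Schwann and glial cells at 65.9 and 89.8 CPM. In the control these 3 classes stood above the other 7, of which epidermal cells were the highest at 28.1 CPM, and the intervals of macrophages and endothelial cells overlapped. Dermal cells, with 22.1 CPM in the control, were the ninth of the 10 classes for Dusp6.

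Spry2 showed the opposite order among these classes. Control dermal cells carried the highest level, 42.6 CPM, and no other class's interval reached it except that of erythroid barcodes, which include dermal RNA. Mural cells had 31.7 CPM and epidermal cells 29.0 CPM of Spry2 in the control. Macrophages held 2.74 CPM and endothelial cells 6.21 CPM, the lowest levels of Spry2 in that library. In the mutant library the Spry2 level of dermal cells was 28.9 CPM and its interval overlapped that of mural cells, 33.0 CPM.

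Spry1 and Spry4 were both highest in mural cells. Spry1 reached 40.9 CPM in control and 59.6 CPM in mutant mural cells, followed in the control by dermal cells (30.1 CPM), endothelial cells (27.2 CPM) and muscle cells (20.9 CPM). The mural interval overlapped that of endothelial cells in the control. In the mutant the mural Spry1 interval (46.0 to 75.9) held the dermal level, 56.4 CPM. Spry4 reached 34.2 and 41.2 CPM in mural cells, above every other class in both libraries. Muscle cells came next for Spry4, with 14.96 CPM in the control and 22.3 CPM in the mutant, but in the control their interval overlapped that of dermal cells (14.5 CPM). Macrophages had 0 UMIs of Spry4 in the control library, with an interval that ended at 0.919 CPM.

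The ETS factors were distributed differently from each other. Etv5 was highest in macrophages of the control library (32.9 CPM), and melanoblasts (21.8 CPM, from 11 UMIs), Schwann and glial cells (16.4 CPM) and epidermal cells (14.4 CPM) followed. In the mutant library Etv5 stood at 56.4 CPM in melanoblasts, from 15 UMIs in 50 cells, and at 38.0 CPM in macrophages, and the intervals overlapped. The mutant melanoblast class also held the neuron gene Stmn2 at 300.8 CPM, from 80 UMIs, against 0 UMIs in the control. All of its Stmn2 lay in 9 cells that finer clustering named as neurons, and all 15 Etv5 UMIs lay in the other 41 cells (61.7 CPM). Etv4 was low in the sums of whole classes. Its highest class level was 9.87 CPM in control dermal cells and 16.4 CPM in mutant endothelial cells, the latter from 21 UMIs. Macrophages held 3 UMIs of Etv4 in each library.

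**Figure D1:**
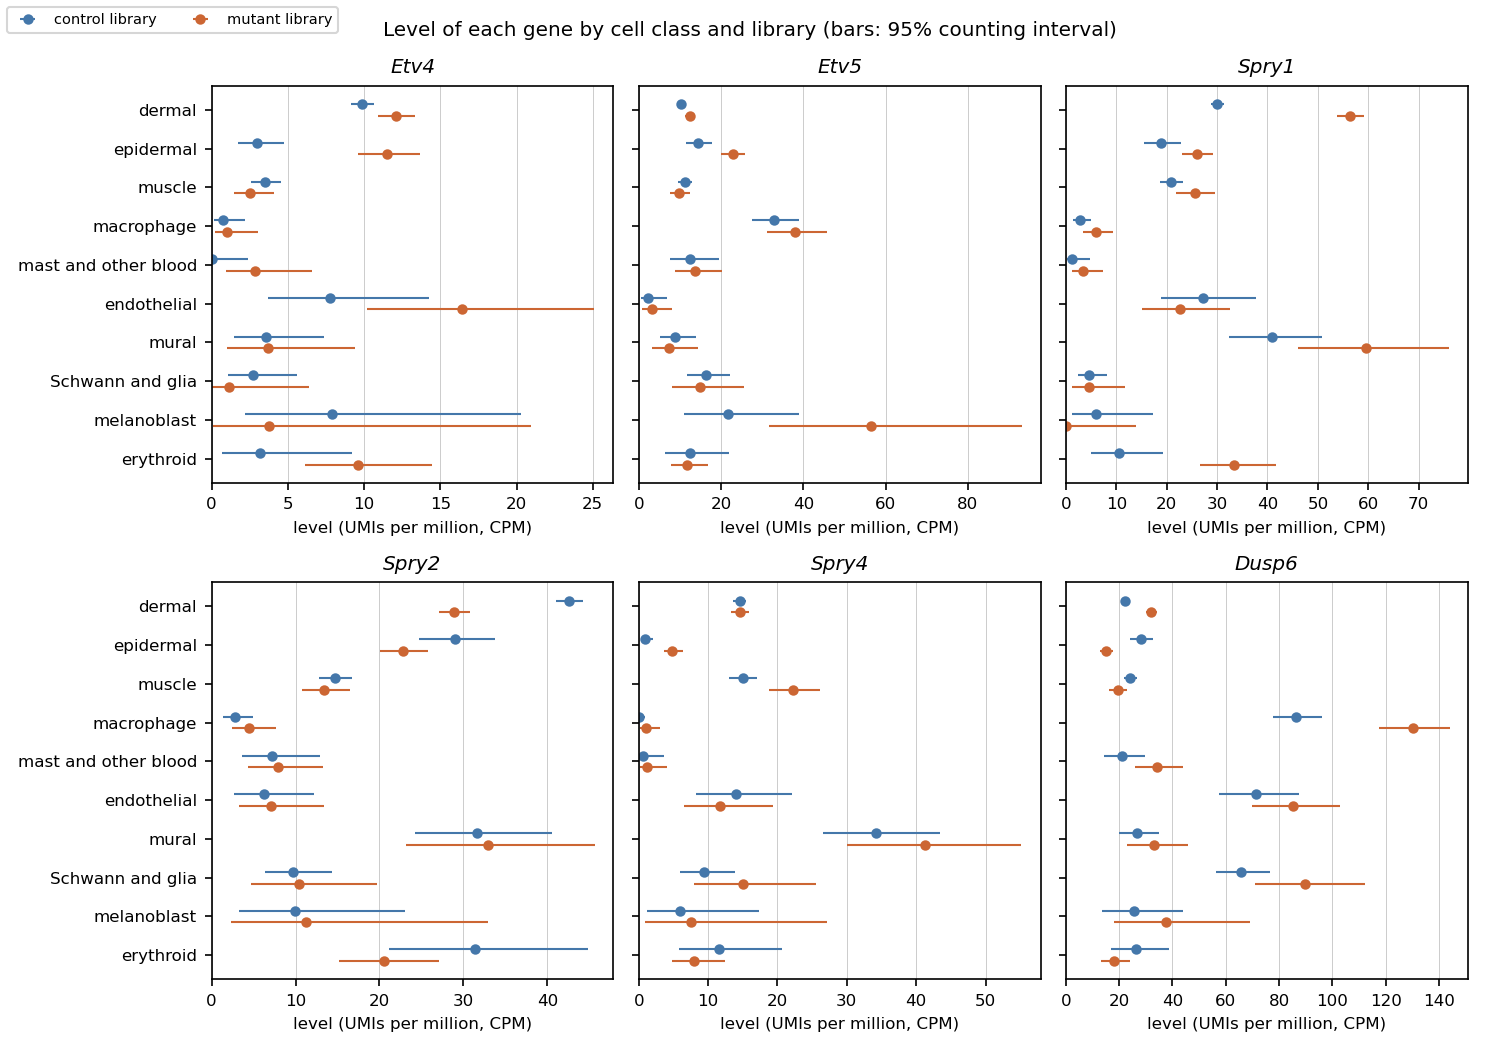
Level of each gene (x axis, CPM) in 10 cell classes (y axis) of the control library (blue) and the mutant library (orange). Points are class sums and bars are 95% counting intervals; Dusp6 is highest in macrophages (86.4 and 130.4 CPM), and Spry2 in the control is highest in dermal cells (42.6 CPM).

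Across the 20 sums of 10 classes in 2 libraries, log2(CPM + 5) of the 6 genes did not move as 1 group. Pearson's r between pairs ran from -0.65 for Spry2 and Dusp6 to 0.67 for Spry1 and Spry2, and r for Etv4 and Etv5 was -0.38. The sums share 2 libraries and differ in depth, so these are descriptions. Of 9248 genes compared, the gene most like Dusp6 was Abca3 (r = 0.88), with Abcd2 and Tcirg1 next. Spry2 was most like Hoxc6 (0.94), then Ptn and Gpc3, each of them highest in dermal cells. Spry4 was most like Chn1 (0.94), then Ndn and Armcx2, each highest in mural cells. Spry1 was most like Id1 (0.92), then Tpm1 and Ltbp4, Etv5 most like Tubgcp5 (0.86), then Fnip1 and Slc15a4, and Etv4 most like Pdpn (0.78), then Rybp and Rai14.

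In the dermis, where the mutant library carries the Hedgehog response, the Sprouty genes differed in opposite directions. Spry1 stood at 30.1 CPM in control dermal cells (1911 UMIs) and at 56.4 CPM in mutant dermal cells (1829 UMIs), a ratio of mutant to control of 1.88 (1.76 to 2.001). Spry2 stood at 42.6 and 28.9 CPM, a ratio of 0.679 (0.630 to 0.732). Spry4 was level, at 14.5 and 14.6 CPM, a ratio of 1.002 (0.895 to 1.12). The intervals of Spry1 and Spry2 lay on opposite sides of 1.

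Dusp6, Etv4 and Etv5 had ratios above 1 in the dermis but under 1.5-fold. Dusp6 stood at 22.1 CPM in the control and 32.0 CPM in the mutant, a ratio of 1.45 (1.34 to 1.58). Etv4 stood at 9.87 and 12.1 CPM, a ratio of 1.23 (1.08 to 1.39), and Etv5 at 10.4 and 12.4 CPM, a ratio of 1.19 (1.05 to 1.35). By the 1.5-fold rule, Spry1 was higher and none of the 6 was lower, beside 4.39% of the 8158 genes measured in dermal cells that were higher and 4.85% that were lower. The median log2 ratio of the 6 genes was 0.25, and that of all genes measured was 0.01. Dusp6 and Spry2 lie close to the 1.5-fold limit: Dusp6 reached 1.62 with every cell thinned to 3000 UMIs, and Spry2 was 0.628, which is more than 1.5-fold lower, among cells without a UMI of 6 immediate early genes.

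The same direction was seen in shares of cells. With every dermal cell thinned to 3000 UMIs, Spry1 was detected in 8.60% of control and 14.5% of mutant cells (17.9% and 26.4% unthinned). Spry2 was detected in 11.8% and 8.27% of thinned cells (24.6% and 15.6% unthinned). Mast and other blood cells, which had 1.31 CPM of Spry1 in the control, showed 0% and 1.21% for Spry1 after thinning and 0.901% and 1.82% for Spry2. Their median depths were 12547 and 10170 UMIs before thinning, against 6890 and 5878 UMIs in dermal cells.

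**Figure D2:**
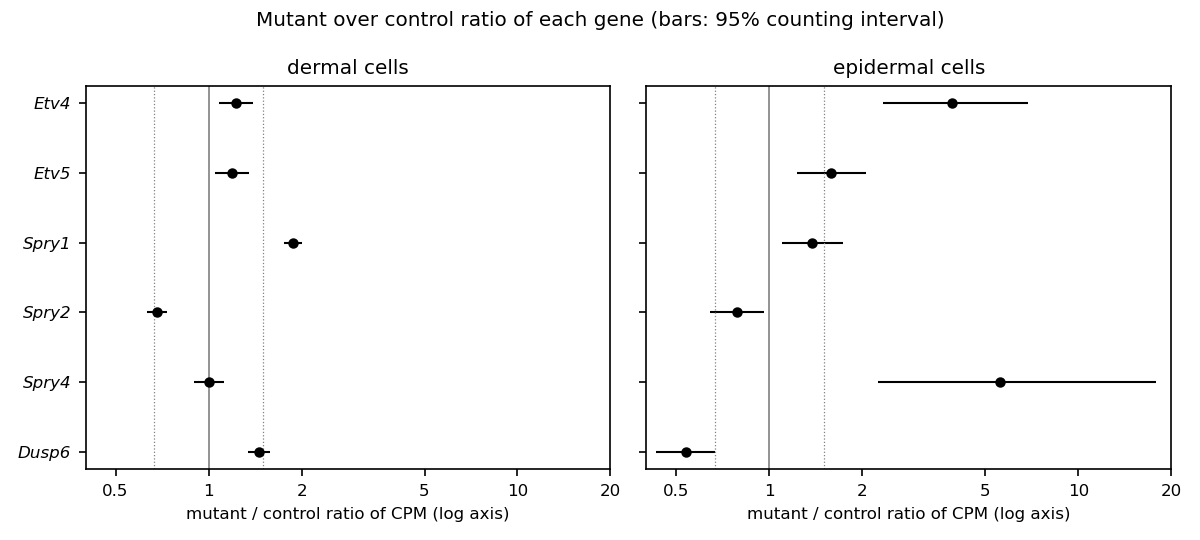
Ratio of mutant to control CPM of each gene (x axis, log scale) in dermal cells (left) and epidermal cells (right), with 95% counting intervals. The solid line marks a ratio of 1 and the dotted lines 1.5-fold either way; Spry1 in dermal cells (1.88) and Etv4 in epidermal cells (3.89) lie to the right, and Dusp6 lies right of 1 in dermal cells (1.45) and left of it in epidermal cells (0.536). Spry4 in epidermal cells is plotted although it did not reach 10 CPM.

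Dermal cells of the libraries were not the same mixture. Of 11 dermal clusters, 3 were shared (clusters 0, 5 and 10, with 2773 control and 1198 mutant cells). Another 3 (clusters 1, 6 and 13) held 3591 mutant and 4 control cells and were led by Hhip, Ptch1, Foxd1 or Gal, which are Hedgehog target or condensate genes. The other 5 (clusters 2, 3, 7, 8 and 9) held 5997 control and 369 mutant cells. Cells were clustered on their whole expression, members included, so the values by cluster below describe where the genes lie.

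Etv4 and Dusp6 varied most among the clusters. In the control, Etv4 ran from 0.738 CPM in cluster 0, led by Prph and Ccn3, to 22.8 CPM in cluster 2, led by Calb1 and Nrgn. Dusp6 ran between the same clusters, from 5.31 to 42.7 CPM, and Spry4 between them too, from 7.52 to 21.5 CPM. Spry1 went the other way: its lowest control level was 23.1 CPM in cluster 2 and its highest 41.1 CPM in cluster 9. Spry2 spanned a narrower range in the control, from 30.4 to 51.5 CPM.

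Among the mostly mutant clusters 1, 6 and 13, cluster 13, led by Gal, Foxd1 and Cdkn1a, combined high Dusp6 with low Spry2 and Spry4. Dusp6 was 55.9 CPM there, against 28.0 CPM in cluster 1 and 33.6 CPM in cluster 6. Etv4 was 21.7 CPM there, against 8.46 and 12.9 CPM. Spry2, at 18.5 CPM, and Spry4, at 7.14 CPM, were at their lowest among the 10 dermal clusters with at least 50 mutant cells. Spry1 was 53.2 CPM in cluster 13, 67.2 CPM in cluster 1 and 52.7 CPM in cluster 6. High Spry1 was not limited to these clusters. Its lowest level among the 10 with at least 50 mutant cells was 41.6 CPM, in cluster 0. That was close to its highest control level, 41.1 CPM in cluster 9, and clusters 3 and 8 reached 69.5 and 62.3 CPM. High Dusp6 and Etv4 were not limited to cluster 13 either. Among clusters mostly of control cells, mutant cells had 71.6 CPM of Dusp6 in cluster 2 and 64.4 CPM in cluster 3. In clusters 7 and 8 they had 42.4 and 47.3 CPM. Their Etv4 levels were 40.8, 35.8 and 25.4 CPM in clusters 8, 2 and 7, and 15.3 CPM in cluster 3.

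**Figure D3:**
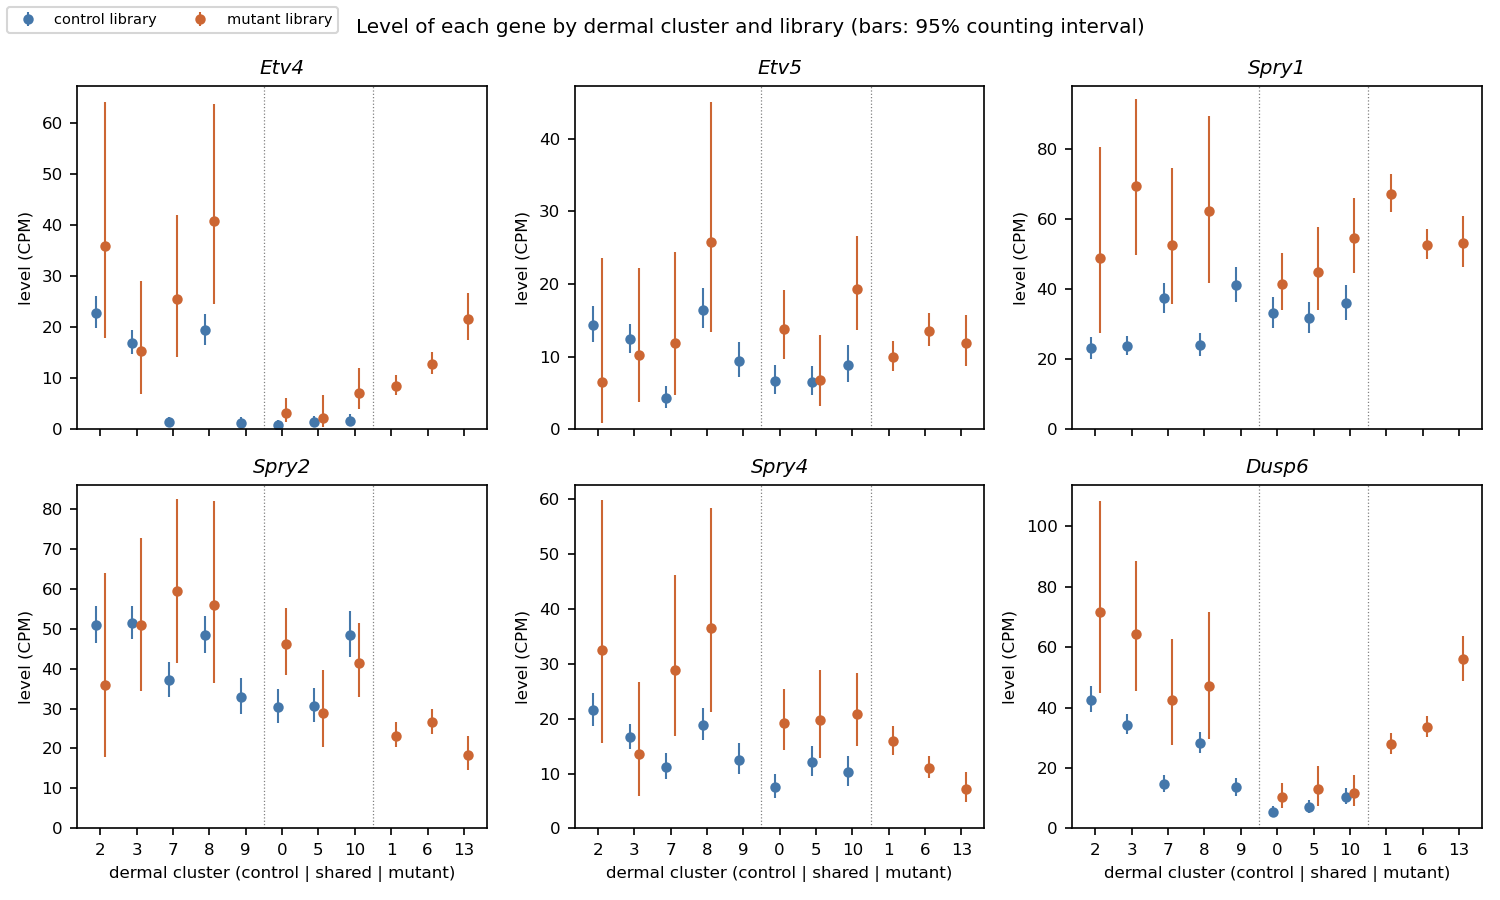
Level of each gene (y axis, CPM) in the dermal clusters (x axis; mostly control, shared and mostly mutant clusters, parted by dotted lines) of the control library (blue) and the mutant library (orange), with 95% counting intervals. Clusters with fewer than 50 cells of a library have no point for it; Etv4 and Dusp6 are near their lowest in the shared clusters 0, 5 and 10, and Spry1 in clusters 1, 6 and 13 lies between 52.7 and 67.2 CPM.

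Within the shared clusters, Spry4, Etv5 and Dusp6 had a higher level in the mutant library by the 1.5-fold rule. Spry4 stood at 9.91 CPM in control and 19.9 CPM in mutant cells, a ratio of 2.01 (1.58 to 2.55). Etv5 stood at 7.22 and 14.1 CPM, a ratio of 1.96 (1.47 to 2.59), and Dusp6 at 7.38 and 11.4 CPM, a ratio of 1.55 (1.14 to 2.08). Spry4, Etv5 and Dusp6 were the 3 higher of 5 genes that reached 10 CPM, and none was lower, beside 2.91% of 8245 genes higher and 1.67% lower. The median log2 ratio of those 5 genes was 0.57 and that of all genes 0.05.

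The other 3 genes in the shared clusters were nearer to the control or sparse. Spry1 had a ratio of 1.39 (1.21 to 1.61), at 33.5 and 46.6 CPM. Spry2 stood at 35.9 and 40.7 CPM, a ratio of 1.13 (0.974 to 1.32). Etv4 had 23 UMIs in control and 25 in mutant cells, at 1.21 and 4.25 CPM, a ratio of 3.51 (1.91 to 6.47). By cluster, Spry4 had ratios of 2.56, 1.63 and 2.05 in clusters 0, 5 and 10, all with intervals above 1, while Spry2 had 1.52 (1.20 to 1.91), 0.941 (0.647 to 1.34) and 0.853 (0.657 to 1.10).

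The few mutant cells in clusters mostly of control cells were compared with their control neighbours too, in the 4 clusters with at least 50 mutant cells (clusters 2, 3, 7 and 8). Dusp6 had ratios of 1.68 (1.04 to 2.58), 1.87 (1.31 to 2.62), 2.90 (1.80 to 4.495) and 1.67 (1.03 to 2.59). Spry1 had ratios of 2.11 (1.16 to 3.56), 2.93 (2.06 to 4.07), 1.41 (0.939 to 2.04) and 2.59 (1.69 to 3.84). Spry2 had ratios of 0.703 (0.349 to 1.27), 0.987 (0.660 to 1.42), 1.60 (1.09 to 2.27) and 1.15 (0.745 to 1.72). In none of the 7 dermal clusters compared within did the Spry2 interval lie below 1, although the ratio over all dermal cells was 0.679.

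Other measures also differed in the shared clusters. Ptch1 stood at 5.11 CPM in control and 19.4 CPM in mutant cells, eYFP at 0.369 and 3.23 CPM, the summed hemoglobin genes at 165.6 and 1028 CPM, and 5 of 15 immediate early and dissociation genes were higher. Their part in the ratios of the FGF response genes was not tested.

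Set against the clusters mostly of control cells, the mutant clusters showed a wider gap between Spry1 and Spry2. Spry1 stood at 28.7 CPM in those control cells and at 58.3 CPM in the mutant cells, a ratio of 2.04 (1.89 to 2.20). Spry2 stood at 45.5 and 24.0 CPM, a ratio of 0.527 (0.480 to 0.578). These were the 1 higher and the 1 lower of 6 genes, beside 6.37% of 8130 genes higher and 7.17% lower. Spry4 had a ratio of 0.741 (0.646 to 0.849), the reverse of its direction in the shared clusters.

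The remaining genes differed less in that comparison. Dusp6 had a ratio of 1.24 (1.14 to 1.36), Etv5 of 1.02 (0.879 to 1.18) and Etv4 of 0.932 (0.810 to 1.07). The comparison sets different clusters side by side, so the position of the cells in the dermis and the genotype cannot be told apart.

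The same order appeared when dermal cells were parted by genes that are not members, each cell thinned to 3000 UMIs. Crabp1, a retinoid-binding protein of the upper dermis, parted the cells most sharply, a split added after the data were seen. In the control, Etv4 stood at 12.9 CPM in cells with a Crabp1 UMI and 0.963 CPM in cells without, a ratio of 13.4 (6.41 to 33.7). In the mutant these levels were 15.7 and 4.38 CPM, a ratio of 3.58 (2.26 to 5.95). Dusp6 had a ratio of 2.68 (2.06 to 3.54) in the control and 2.64 (2.04 to 3.44) in the mutant. Spry1 had 0.816 (0.702 to 0.951) and 1.09 (0.935 to 1.27).

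Cells with a UMI of Lef1, a Wnt pathway transcription factor, also had more Etv4 and Dusp6. Dusp6 stood at 37.6 CPM with and 17.9 CPM without Lef1 in the control, a ratio of 2.10 (1.60 to 2.71), and at 48.0 and 28.6 CPM in the mutant, a ratio of 1.68 (1.33 to 2.10). Etv4 had ratios of 2.18 (1.48 to 3.13) and 1.59 (1.07 to 2.31). Spry1 was lower in control cells with Lef1, 19.6 against 31.7 CPM, a ratio of 0.620 (0.431 to 0.866), and in the mutant its interval held 1 (0.717 to 1.10).

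Within the mutant dermis, Spry2 and Spry4 were lower in cells that carried Hedgehog target transcripts. Among cells with a UMI of Ptch1, Gli1 or Hhip, Spry2 stood at 23.6 CPM against 37.5 CPM in cells without, a ratio of 0.629 (0.517 to 0.764). Spry4 stood at 10.9 against 17.6 CPM, a ratio of 0.617 (0.461 to 0.823). Dusp6 had a ratio of 1.24 (1.02 to 1.504). Spry1 did not differ beyond counting error, at 54.8 and 55.6 CPM, a ratio of 0.986 (0.855 to 1.14).

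The split was repeated with condensate genes. Mutant cells with a UMI of Foxd1, Gal, Sox18 or Sox2 numbered 1121 of 4810. Spry4 stood at 7.43 CPM in them and 15.8 CPM in the rest, a ratio of 0.470 (0.296 to 0.717). Spry2 had a ratio of 0.618 (0.470 to 0.803), while Dusp6 had 1.47 (1.20 to 1.80) and Etv4 1.47 (1.04 to 2.04). In the control dermis only 283 of 8489 cells had a Hedgehog target UMI, and the intervals of Spry1, Spry2, Spry4, Dusp6 and Etv5 in that split held 1. Etv4 was the exception, at 18.8 CPM with and 9.18 CPM without, a ratio of 2.05 (1.15 to 3.41).

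Further splits of the mutant dermis, by the transgene and by a ligand, were added after the data were seen. Between cells with and without an eYFP UMI, the intervals of all 6 ratios held 1. Among 185 cells with a UMI of the ligand Fgf5, Spry1 stood at 84.7 CPM against 54.0 CPM in the rest, a ratio of 1.57 (1.14 to 2.11), and the other 5 intervals held 1. Splits by a UMI of 6 immediate early genes gave intervals that held 1 for all 6 genes in the mutant. In the control, Etv4 had a ratio of 0.759 (0.580 to 0.990) in that split, and the other 5 intervals held 1. For a UMI of 8 G2M genes (expressed in dividing cells), no control interval held 1. The share of all genes whose interval excluded 1 was not computed for this or any other split. The control ratios were 1.85 (1.40 to 2.45) for Etv4, 1.38 (1.15 to 1.66) for Dusp6, 1.37 (1.10 to 1.70) for Spry4, 1.34 (1.03 to 1.75) for Etv5, 1.19 (1.05 to 1.34) for Spry2 and 0.821 (0.712 to 0.947) for Spry1. The mutant intervals of all 6 genes held 1.

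A further split was by a UMI of Fgf10, a ligand made by mesenchyme, found in 363 of 8489 control and 473 of 4810 mutant cells. In the control, Etv4 had 0 UMIs in cells with Fgf10 against 242 in cells without, and the interval of the ratio ended at 0.344. Spry1 had a ratio of 1.43 (1.04 to 1.92) there and Spry2 of 0.678 (0.461 to 0.963), while the intervals of Etv5, Spry4 and Dusp6 held 1. In the mutant, Spry4 had a ratio of 0.534 (0.262 to 0.977), and the other 5 intervals held 1.

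**Figure D4:**
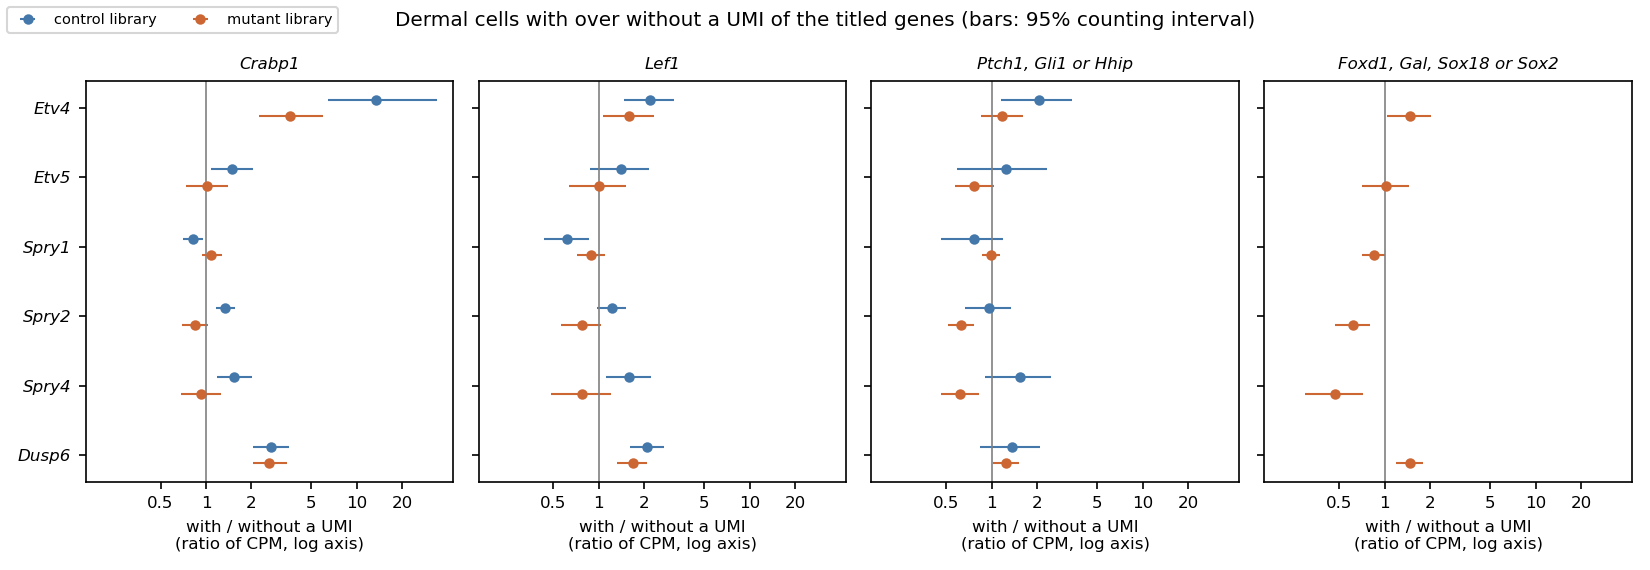
Ratio of CPM in dermal cells with a UMI of the titled genes to CPM in cells without (x axis, log scale) for each gene (y axis), in the control library (blue) and the mutant library (orange), with 95% counting intervals, each cell thinned to 3000 UMIs. Etv4 and Dusp6 lie to the right of 1 for Crabp1 and Lef1, and Spry2 (0.618) and Spry4 (0.470) lie to the left of it for condensate genes in the mutant; the control is not drawn there, with 44 cells.

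In the epidermis, where Hedgehog targets were low in both libraries (Ptch1 6.94 CPM in the control and 8.70 CPM in the mutant), Etv4 and Etv5 were higher and Dusp6 lower in the mutant library. Etv4 stood at 2.95 CPM in control cells and 11.5 CPM in mutant cells, a ratio of 3.89 (2.34 to 6.88). Etv5 stood at 14.4 and 22.8 CPM, a ratio of 1.58 (1.23 to 2.05). Dusp6 stood at 28.1 and 15.1 CPM, a ratio of 0.536 (0.429 to 0.669). These were the 2 higher and 1 lower of 5 genes that reached 10 CPM, beside 4.23% of 7305 genes higher and 2.71% lower. The median log2 ratio of the 5 was 0.44 and that of all genes 0.06.

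The Sprouty genes again differed among themselves. Spry1 had a ratio of 1.37 (1.10 to 1.73), at 18.9 and 26.0 CPM, and Spry2 a ratio of 0.786 (0.644 to 0.961), at 29.0 and 22.8 CPM. Spry4 remained under 10 CPM, with 5 UMIs (0.868 CPM) in control and 54 UMIs (4.84 CPM) in mutant epidermal cells, a ratio of 5.58 (2.25 to 17.9). That ratio was 2.56 with classes taken from per-cell marker scores and 2.60 with doublets kept. The Spry1 interval lay above 1 and the Spry2 interval below 1 in both dermis and epidermis. Col1a1 in epidermal cells was 0.890% (control) and 0.870% (mutant) of its dermal level.

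Both large epidermal clusters showed the same directions. In clusters 11 and 12, Etv4 had ratios of 3.43 (1.53 to 9.06) and 4.12 (2.14 to 8.90). Etv5 had ratios of 1.38 (0.915 to 2.12), an interval that held 1, and 1.68 (1.22 to 2.36). Dusp6 had ratios of 0.602 (0.412 to 0.881) and 0.493 (0.373 to 0.651).

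Control epidermis held cells that the mutant epidermis all but lacked. A UMI of Dkk4 or Fgf20, genes of the hair placode, was found in 91 of 552 control cells and in 1 of 1390 mutant cells. The split was chosen after the data were seen. Dkk4 itself stood at 65.1 CPM in the control and had 0 UMIs in mutant epidermis, where 3 UMIs would be 0.269 CPM. Lef1 stood at 205.9 CPM in control and 45.2 CPM in mutant epidermis.

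Dusp6 was concentrated in those cells. It stood at 68.2 CPM in control cells with a Dkk4 or Fgf20 UMI, 19.3 CPM in control cells without and 15.1 CPM in mutant cells without. The ratio of with to without was 3.54 (2.56 to 4.88). Between mutant and control cells without, the ratio was 0.782 (0.602 to 1.02), so Dusp6 was no longer lower by the 1.5-fold rule and its interval held 1. Spry2 followed the same order, with 45.2, 25.4 and 22.7 CPM, and a ratio of 0.893 (0.716 to 1.12) between mutant and control cells without.

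Etv4 and Etv5 behaved differently from Dusp6 in this split. Etv4 stood at 10.6 CPM (11 UMIs) in control cells with such a UMI, 1.27 CPM in control cells without and 11.4 CPM in mutant cells without. The level in mutant cells was thus as high as in control cells with placode transcripts, and its ratio to control cells without was 8.97 (4.01 to 24.9), from 127 and 6 UMIs. Etv5 stood at 24.0, 12.3 and 22.8 CPM, with a ratio of 1.86 (1.39 to 2.51) between mutant and control cells without. Spry4 had 0 UMIs in control cells with, where its interval ended at 3.55 CPM, and stood at 1.06 and 4.85 CPM in control and mutant cells without.

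**Figure D5:**
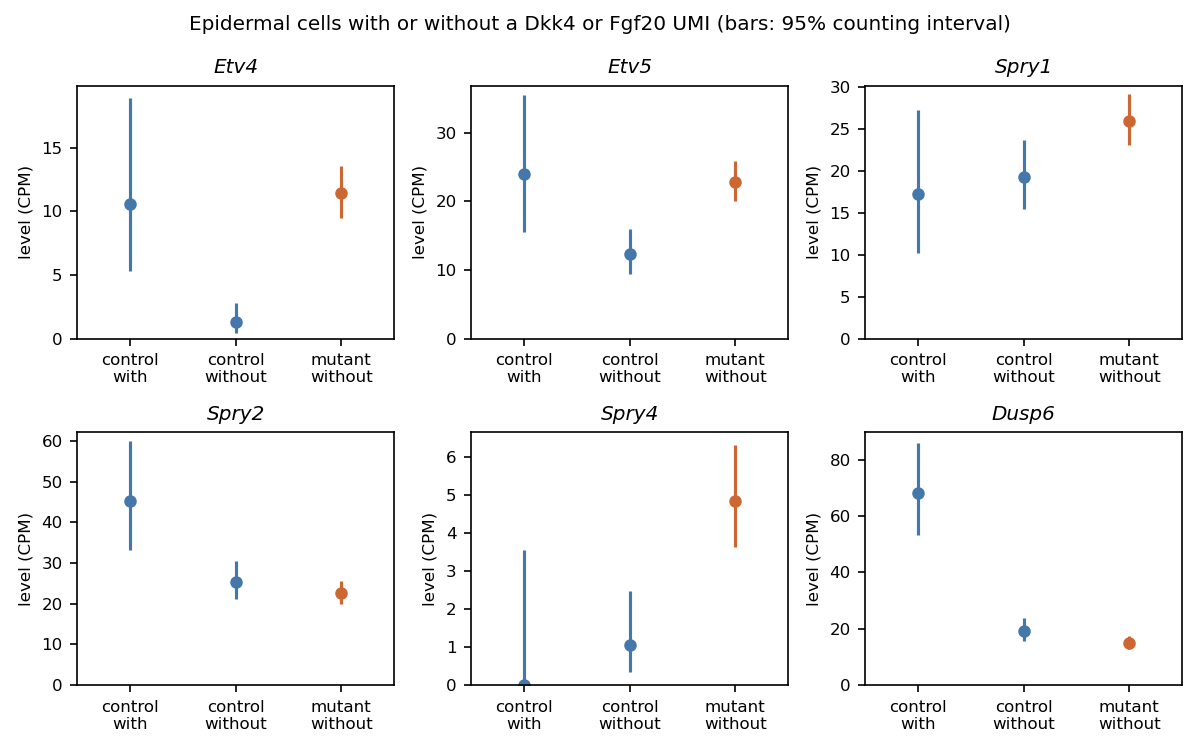
Level of each gene (y axis, CPM) in epidermal cells of the control library with a Dkk4 or Fgf20 UMI (91 cells), of the control library without (461 cells) and of the mutant library without (1389 cells), with 95% counting intervals. Dusp6 is high in the first set (68.2 CPM), whereas Etv4 is high in that set and in the mutant set (10.6 and 11.4 CPM).

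In muscle, none of 5 measured genes passed the 1.5-fold rule, beside 2.31% of genes higher and 1.16% lower. Spry4 had a ratio of 1.49 (1.20 to 1.84) there, and Dusp6 a ratio of 0.806 (0.654 to 0.987). Muscle cells were not the same mixture in the libraries: cluster 16, led by Tnnt2, Mylpf and Myog, held 187 of 998 control and 211 of 725 mutant cells, and the rest were in cluster 4, led by Msc, Isl1 and Rprm. Over both libraries Spry4 stood at 38.3 CPM in cluster 16 and 12.1 CPM in cluster 4, and Dusp6 at 9.21 and 25.9 CPM. Within clusters 4 and 16 the Spry4 ratios were 1.20 (0.884 to 1.62) and 1.36 (0.984 to 1.87), and the Dusp6 ratios 0.859 (0.688 to 1.07) and 1.02 (0.510 to 2.02), so each interval held 1.

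In macrophages Dusp6 was higher, with a ratio of 1.51 (1.30 to 1.75), beside 5.19% of genes higher, and Etv5 had a ratio of 1.16 (0.890 to 1.502). Dusp6 was detected in 53.4% of control and 53.8% of mutant macrophages (26.7% and 26.9% thinned). Finer clustering gave a macrophage cluster led by Pf4 and Mrc1, with 277 control and 225 mutant cells. Another, led by Cd52, Lyz2 and Ccr2, held 64 and 100 cells and stayed unnamed. The part of this mixture in the Dusp6 ratio was not tested. Dusp6 was also higher in mast and other blood cells (1.63, 1.04 to 2.58), beside 5.91% of genes higher.

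In Schwann and glial cells Spry4 was higher (1.60, 0.749 to 3.27), beside 8.43% of genes higher, from 13 and 24 UMIs. Dusp6 had ratios of 1.36 (1.03 to 1.79) in Schwann and glial cells and 1.19 (0.896 to 1.59) in endothelial cells. Etv4 was higher in endothelial cells (2.12, 0.954 to 5.03), beside 7.07% of genes higher, from 21 and 10 UMIs. Etv5 was higher in melanoblasts (2.59, 1.11 to 6.23), beside 23.8% of genes higher. All 4 measured of 6 neuron markers were higher in that class too, and without the 9 cells named as neurons by finer clustering, which held its Stmn2, the Etv5 ratio was 2.83 (1.22 to 6.82). Spry1 in mural cells had a ratio of 1.46 (1.03 to 2.05). Erythroid barcodes, with their RNA of dermal and other cells, had a Spry1 ratio of 3.19 (1.65 to 6.92), beside 17.6% of genes higher. Their Spry2 ratio was 0.652 (0.406 to 1.06), beside 12.7% of genes lower.

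Other genes of the pathway give the setting of these values. Of 15 further feedback and target genes of FGF and ERK signalling, 9 were measured in dermal cells, of which 1 was higher and 2 were lower, with a median log2 ratio of -0.12. Dusp9, another ERK phosphatase, was higher (1.78, 1.54 to 2.07). Flrt3, a membrane protein that binds FGF receptors, stood at 127.3 CPM in the control and 63.3 CPM in the mutant (0.497), and Ier3 at 29.0 and 19.2 CPM (0.662). Among those within 1.5-fold, Il17rd (Sef), an inhibitor of FGF signalling, had a ratio of 1.32, Spred1 of 1.20 and Dusp7 of 0.739. In epidermal cells 6 of the 15 were measured and Flrt3 alone passed the rule, as lower (0.568).

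Ligands differed more than receptors in the dermis. Of 6 FGF ligand genes measured, 2 were higher and 1 was lower, beside 4.39% and 4.85% of all genes measured in dermal cells. The median log2 ratio of the 6 was -0.30. Fgf5 had only 2 UMIs (0.0315 CPM) in the control dermis but 530 UMIs (16.3 CPM) in the mutant dermis, a ratio of 519.3 (143.0 to 4299). Fgf10 stood at 14.5 CPM in control and 39.5 CPM in mutant cells (2.73). Within the shared clusters Fgf10 was lower in the mutant, at 31.9 and 20.6 CPM, a ratio of 0.646 (0.527 to 0.786). Mutant cells of the mostly mutant clusters had 46.6 CPM, against 7.01 CPM in control cells of the clusters mostly of control cells. Fgf13, a member of the family that stays inside the cell, stood at 11.99 and 5.64 CPM (0.471). All 3 measured receptor genes were within 1.5-fold, with Fgfr1 at 95.8 and 106.6 CPM and Fgfr2 at 14.7 and 21.3 CPM. In epidermal cells Fgfr2, the receptor most abundant there, stood at 138.9 and 185.5 CPM, and no ligand gene reached 10 CPM.

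Genes of the kinase route differed little. Of 18 measured genes from adaptor to ERK, the adaptor Gab1 was higher in mutant dermal cells (1.87) while 17 stayed inside the 1.5-fold limits; the median log2 ratio was 0.01. All 17 measured in epidermal cells were within 1.5-fold. The 6 measured genes of other receptor tyrosine kinases were within 1.5-fold in dermal cells. Immediate early and dissociation genes, which ERK and tissue handling both raise, were higher in mutant dermal cells for 5 of 13 (Ier2 2.64, Btg2 2.24, Egr1 1.95, Nr4a1 1.75 and Junb 1.54), and their part in the ratios of the FGF response genes was not tested beyond the splits above.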

How the data were processed

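The deposited matrices hold raw UMI counts per gene and droplet barcode, 1 matrix per library with 32286 features; the authors made them with Cell Ranger 5.0.1 on mm10, per the submitters' processing notes. Cells were freed from the skin with trypsin and sorted after DAPI staining, and libraries used 10x Genomics 3′ v3.1 chemistry, per the labels' protocols. Gene positions are from GENCODE M21.

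Barcodes with at least 1000 genes and at most 10% mitochondrial UMIs were kept (12120 control, 8783 mutant), and Scrublet in scanpy 1.11.5 removed 567 (4.68%) and 262 (2.98%) as doublets. Cells of both libraries were clustered together (2000 variable genes, 30 principal components, 15 neighbours, Leiden resolution 1) and named from 14 marker lists, each requiring at least 3 markers at 10 CPM. UMIs were summed per class and library. Levels have exact Poisson intervals, ratios exact conditional binomial intervals and shares exact Clopper-Pearson intervals, all at 95% and for counting error only. Log2 ratios for medians had 1 CPM added. Embryos within a library are pooled, so neither embryos nor cells served as replicates.

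The 6 genes and all lists were chosen with earlier results of these data known. Beyond the 6 genes, the text names the 3 genes with the most similar levels over the class sums (at least 20 CPM in a sum), list genes past 1.5-fold in dermal or epidermal cells, and the highest of a list; Dusp7, Il17rd, Spred1 and further genes within 1.5-fold were named after their values were seen. The interval and fold rules were tested on simulated counts. Intervals came from scipy 1.17.1 under Python 3.11.15.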

Additional observations from a re-analysis of the deposited data

Results flagged for a closer look

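Dusp6 had opposite directions in different classes. Its ratio of mutant to control was 0.536 in epidermal cells and 0.806 in muscle cells, against 1.45 in dermal cells, and the epidermal and muscle intervals lay below 1 while the dermal interval lay above it. Each class has 1 library per group, so the difference between classes was not tested. Epidermal cells without a Dkk4 or Fgf20 UMI gave 0.782 (0.602 to 1.02), a smaller difference than all epidermal cells. In muscle cells the median depth was 14486.5 UMIs in the control and 8747 UMIs in the mutant library, and the part of depth in the muscle value was not tested. Cluster 16, low in Dusp6, held 187 of 998 control and 211 of 725 mutant muscle cells. Within muscle clusters 4 and 16 the Dusp6 ratios were 0.859 (0.688 to 1.07) and 1.02 (0.510 to 2.02), and both intervals held 1.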

How the results depend on the processing

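No paired analysis was possible because each group has 1 library. The number of genes at least 1.5-fold higher in mutant dermal cells was 1, and 2 with cells thinned to 3000 UMIs, with cells lacking a G2M UMI and with classes from per-cell marker scores. The number lower was 0, and 1 with at least 2000 genes per barcode, with cells lacking an immediate early UMI and at Leiden resolution 2. The dermal median log2 ratio was 0.25, and 0.89 with a minimum of 50 CPM, which leaves 1 gene. In epidermal cells lacking a G2M UMI (77 control and 155 mutant) the number higher was 1 in place of 2, the median log2 ratio was -0.34 over 4 genes in place of 0.44, and the Spry1 ratio was 0.907 in place of 1.37. In epidermal cells lacking a Dkk4 or Fgf20 UMI the number lower was 0 in place of 1; this alternative and the removal of barcodes listed in both libraries were chosen after seeing the data. The cause of these shifts was not tested. Of 123 further values of single ratios, 109 moved by less than their counting interval, 13 by more, and 1 reversed. The widest range was that of Etv4 in epidermal cells, 3.69 to 8.97; Spry1 in dermal cells stayed between 1.64 and 1.93, Dusp6 between 1.28 and 1.98 and Spry2 between 0.628 and 0.809. Dusp6 in muscle cells, 0.806 in all, was 0.859 in cluster 4 and 1.02 in cluster 16; the splits of the muscle and melanoblast classes were also chosen after seeing the data. No ratio could be given where control cells had 0 UMIs (Spry4 in thinned epidermal cells, Etv4 and Spry4 in those lacking a G2M UMI), and a minimum of 50 CPM left no epidermal gene. Scaling by trimmed means shifted all log2 ratios by 0.01 in dermal and 0.05 in epidermal cells. Depth limits Etv4 and Spry4 most: in control epidermal cells they rest on 17 and 5 UMIs.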
